A study of Bos taurus with 27 samples.

Results

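The JAK and STAT signalling genes listed for the calf colon were 9 genes, the receptor subunit IL6ST, the kinases JAK1, JAK2 and TYK2, and the transcription factors STAT2, STAT3, STAT5A, STAT5B and STAT6. They were chosen by name, and a gene was kept when its symbol led to 1 Ensembl identifier in the count table of 24616 genes. This held for 5 of the 9, which were IL6ST (ENSBTAG00000017745), JAK1 (ENSBTAG00000003147), TYK2 (ENSBTAG00000011698), STAT3 (ENSBTAG00000021523) and STAT6 (ENSBTAG00000006335). STAT2, STAT5A, STAT5B and JAK2 were not analysed here. All 5 genes kept were among the 13943 genes that passed the filter on low values and entered the tests.

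Cytokines of the interleukin and interferon families bind receptors that have no kinase activity of their own, and the Janus kinases bound to those receptors phosphorylate them and the STAT proteins, which then pair, enter the nucleus and start transcription. IL6ST, also called gp130, is the signalling subunit shared by interleukin 6, interleukin 11 and related cytokines, and it works largely through JAK1 and STAT3. In the gut, STAT3 is known for its part in the renewal and repair of the epithelium, while STAT6 carries the signal of interleukins 4 and 13.

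RNA was sequenced from the colon of 27 male Holstein calves at 51 h of age, from a segment taken just beyond the ileo-cecal junction. The calves received their first colostrum directly after birth (TRT0), at 6 h (TRT6) or at 12 h (TRT12), with 9 calves in each treatment, and each treatment held 4 calves of primiparous heifers (H) and 5 of multiparous cows (C). All of them, TRT0 included, were fed the same pooled and pasteurized colostrum and later milk replacer, so no group went without colostrum. Each group was 1 breed, 1 sex and 1 age. Milk replacer began 12 h after the colostrum meal, so its start and the time since colostrum also differed between the treatments. These cannot be told apart from the delay of the colostrum. The comparisons ask whether the delay of the first colostrum, or the parity of the dam, went with different levels of these genes in the colon wall.

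Gene counts summed to between 1163791 and 4202593 per calf, and the lowest count of any of the 5 genes in any calf was 71. These totals are far below the numbers of reads per sample that the paper reports, and the reason was not examined. Counting error and lower limits given here are thus those of the deposited counts, not of the full sequencing. Levels are given as CPM, counts divided by the calf's library total and set to a common scale, after correction by TMM factors (0.886 to 1.15) as in the tests. The library names held 3 codes, of 11, 11 and 5 calves, read here as sequencing lanes and numbered 1 to 3. No label states that the codes are lanes or runs. The code of lane 3 differed from those of lanes 1 and 2 in a further part, read here as the run. Lane and run thus cannot be told apart for its calves, and lane 3 held no calf of TRT0_H, TRT6_H or TRT12_C. Markers were used for epithelium (6 of 8 listed genes with an identifier), smooth muscle (5 of 5) and leukocytes (2 of 6, PTPRC and CSF1R). Their identifiers all came from the study's list of core genes, which have a CPM of 1 or more in every calf. Their detection in every calf was thus fixed in advance and says nothing about the makeup of the piece. The summed level of the epithelial markers was 1760 to 2226 CPM in TRT0, 1638 to 2755 in TRT6 and 1779 to 3095 in TRT12. That of the smooth muscle markers was 4942 to 9531, 4455 to 11279 and 5632 to 8825 CPM, and that of the leukocyte markers 108 to 202, 79.5 to 252 and 106 to 266 CPM, in the same order. In such bulk tissue, fewer cells of a type and less RNA per cell cannot be told apart.

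None of the 5 genes was called in any of the 13 contrasts between treatments or parities at an adjusted p of 0.10 or less and a fold change of 1.2 or more, by the quasi-likelihood test of edgeR (Benjamini-Hochberg adjusted). The same rule called 0.00% of all genes tested in each of the 13 contrasts, so the members stood where the whole table stood. The edgeR likelihood ratio test and DESeq2 called 0 of the 5 genes as well, and of all 13943 genes at most 2 and 51 in any of these contrasts. The lowest adjusted p among the 65 tests of the 5 genes was 0.648, for STAT3 in TRT12_C vs. TRT0_C. At an unadjusted p under 0.05, IL6ST and STAT3 were found in 5 of the 65 tests (7.69%) and JAK1, TYK2 and STAT6 in none, beside 4.19% of the tests of all genes over the same 13 contrasts. The largest of the 65 differences was 0.42 on the log2 scale (a fold of 1.34), and the median of their sizes was 0.09. Contrasts that share a group also share its calves, so they are not independent of each other.

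IL6ST was the only gene of the 5 with an unadjusted p under 0.05 between treatments over all calves. Its level ranged from 86.2 to 126 CPM in TRT0 (median 105), from 84.9 to 106 CPM in TRT6 (median 95.7) and from 86.0 to 133 CPM in TRT12 (median 107.7). The 3 ranges overlapped, and the lowest median was that of TRT6. Of the 9 TRT12 calves 5 lay above every TRT6 calf, and of the 9 TRT6 calves 1 lay below every TRT0 calf. The means were 108 ± 11.9, 95.2 ± 7.69 and 107 ± 13.2 CPM (SD, n = 9 each). In TRT6 vs. TRT0 the log2 fold change was -0.18 (SE 0.083), with an unadjusted p of 0.0397 and an adjusted p of 1 by edgeR's quasi-likelihood test, in a contrast where 3.14% of all genes had an unadjusted p under 0.05. This unadjusted p stayed under 0.05 in 18 of 27 edgeR fits that each left out 1 calf, was 0.0878 without TRT0 replicate 4, and reached 0.0588 under the 10 other settings. For TRT12 vs. TRT6 the value was 0.16 (unadjusted p = 0.0566 by the same edgeR test), where the share of all genes was again 3.14%. For TRT12 vs. TRT0 it was -0.01, with a 95% interval from -0.18 to 0.15, where the share was 9.37%.

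Within parity, IL6ST had an unadjusted p under 0.05 between TRT6 and TRT0 in the C calves and not in the H calves. In TRT0_C the 5 calves had 102, 105, 108.5, 110.1 and 123 CPM, and in TRT6_C 84.9, 87.2, 87.7, 95.7 and 106 CPM. Of the 5 TRT6_C calves, 4 lay below the lowest TRT0_C calf, and the fifth lay inside the TRT0_C range. The log2 fold change was -0.25 (SE 0.11, unadjusted p = 0.0326, adjusted p = 1, edgeR quasi-likelihood test), against 1.95% of all genes with an unadjusted p under 0.05. In the H calves the values were 86.2, 103, 104.5 and 126 CPM in TRT0_H and 95.3, 96.0, 97.7 and 106 CPM in TRT6_H. Here the TRT6 calves lay inside the TRT0 range, and the log2 fold change was -0.09 with an unadjusted p of 0.496 by the same edgeR test, where 3.34% of all genes had a p under 0.05. The edgeR F test of treatment by parity gave IL6ST an unadjusted p of 0.339, so the C and H differences were not shown to differ from each other. With lane as a covariate the difference in the C calves was -0.30 (unadjusted p = 0.0200, edgeR quasi-likelihood test). Of the 13943 genes 462 were then under 0.05 in this contrast, against 272 without lane. The 5 TRT0_C calves came from lanes 2 and 3, and 3 of the 5 TRT6_C calves from lane 1, so no lane held 2 or more calves of each group. Without TRT0 replicate 4, the TRT0_C calf with the highest level, the difference in the C calves was -0.21 (unadjusted p = 0.0877, edgeR quasi-likelihood test).

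**Figure D1:**
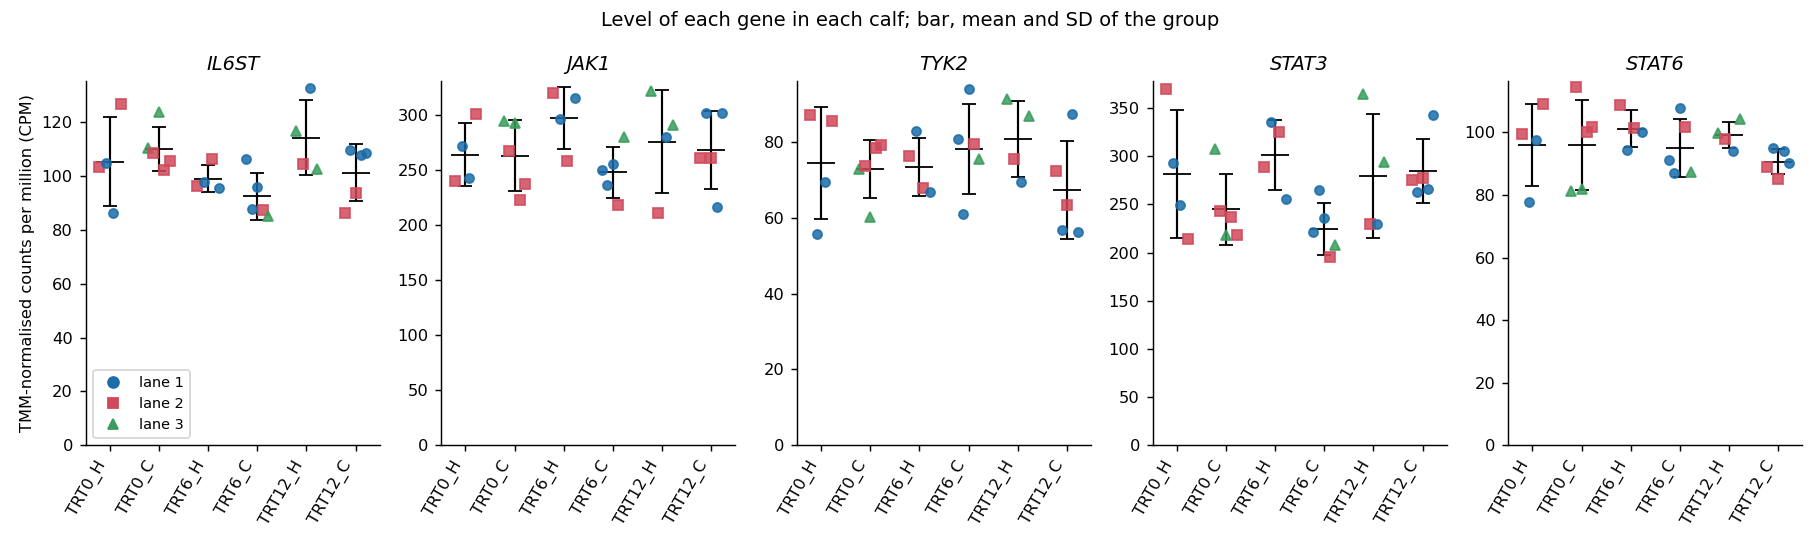
Level of IL6ST, JAK1, TYK2, STAT3 and STAT6 in each of the 27 calves, in TMM-normalised CPM from 0, by treatment and dam parity. Each point is a calf, its shape and colour give the sequencing lane, and the bars give the mean and SD of 4 H or 5 C calves. The STAT3 calves of TRT6_C lie between 195 and 265 CPM and those of TRT6_H between 256 and 336 CPM, with 1 TRT6_C calf above the lowest TRT6_H calf.

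JAK1, the kinase that docks to IL6ST and to most interferon and interleukin receptors, had means in the 3 treatments that differed by less than their spread. TRT0 had 264 ± 28.8, TRT6 270.2 ± 35.1 and TRT12 272 ± 38.4 CPM (SD over 9 calves). Its log2 fold change in TRT6 vs. TRT0 was 0.03 (95% interval -0.16 to 0.22), and for TRT12 vs. TRT0 it was 0.04 (-0.15 to 0.23). The widest gap for JAK1 lay between the parities in TRT6, where the 4 H calves had 259, 296.5, 315 and 319.9 CPM and the 5 C calves 218, 236, 251, 256 and 281 CPM. Of the C calves 4 lay below the lowest H calf, and the fifth lay between the lowest and the next H calf. For TRT6_C vs. TRT6_H the log2 fold change of JAK1 was -0.26 (SE 0.13), with an unadjusted p of 0.0623 and an adjusted p of 0.998 by edgeR's quasi-likelihood test. With lane as a covariate it was -0.33 (unadjusted p = 0.0105, adjusted p = 0.564, same test), which moves it past an unadjusted p of 0.05. Many other genes moved with it, since 1074 of the 13943 genes were under 0.05 with lane in this contrast, against 538 without lane. The mean CPM of JAK1 was 270 in lane 1, 255 in lane 2 and 296.5 in lane 3, and the edgeR F test of lane gave it an unadjusted p of 0.104.

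TYK2, the Janus kinase of the type I interferon, interleukin 10 and interleukin 12 receptors, also had means within the spread of the calves. They came to 73.5 ± 10.6 CPM for TRT0, 75.9 ± 9.90 for TRT6 and 73.2 ± 13.1 for TRT12 (SD over 9 calves). Its log2 fold changes against TRT0 were 0.05 (95% interval -0.17 to 0.27) and -0.01 (-0.23 to 0.21). Its mean was highest in TRT12_H, at 80.7 CPM, and lowest in TRT12_C, at 67.2 CPM. The 4 TRT12_H calves had 69.4, 75.3, 86.7 and 91.2 CPM and the 5 TRT12_C calves 56.3, 56.9, 63.4, 72.2 and 87.3 CPM. The ranges overlapped, and the log2 fold change in TRT12_C vs. TRT12_H was -0.25 (SE 0.15, unadjusted p = 0.113, edgeR quasi-likelihood test), in a contrast where 2.68% of all genes had a p under 0.05.

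STAT3, the transcription factor downstream of IL6ST and JAK1, had an unadjusted p under 0.05 between the parities over all calves, and not between the treatments over all calves. By treatment the mean of TRT0 was 261 ± 52.2 CPM, that of TRT6 259 ± 49.8 and that of TRT12 283 ± 46.0 (SD over 9 calves). Against TRT0, the log2 fold change was -0.02 for TRT6 (95% interval -0.26 to 0.22) and 0.12 for TRT12 (-0.12 to 0.35). By parity, STAT3 ranged from 214 to 369 CPM with a median of 291 in the 12 H calves, and from 195 to 343 CPM with a median of 243 in the 15 C calves. The ranges overlapped widely, and 2 C calves lay below the lowest H calf. STAT3 had a log2 fold change of -0.20 (SE 0.095) in C vs. H, with an unadjusted p of 0.0462 and an adjusted p of 0.9997 by edgeR's quasi-likelihood test, where 2.52% of all genes had an unadjusted p under 0.05. This value kept an unadjusted p under 0.05 in 10 of 27 edgeR fits that each left out 1 calf, and without TRT0 replicate 2 it was -0.15 (unadjusted p = 0.120, edgeR quasi-likelihood test). With library totals in place of TMM factors it was -0.16 (unadjusted p = 0.132, same edgeR test).

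Taken by treatment, the parity difference of STAT3 was largest in the TRT6 calves. The 4 TRT6_H calves had 256, 289, 325 and 336 CPM, and the 5 TRT6_C calves 195, 208, 221, 236 and 265 CPM. Of the 5 C calves, 4 lay below every H calf, and 1 lay just above the lowest H calf. The log2 fold change in TRT6_C vs. TRT6_H was -0.42 (SE 0.16, 95% interval -0.74 to -0.09), with an unadjusted p of 0.0132 and an adjusted p of 0.998 by edgeR's quasi-likelihood test. In that contrast 3.86% of all genes had an unadjusted p under 0.05. The unadjusted p of STAT3 stayed under 0.05 in all 27 fits that left out 1 calf (log2 fold change -0.49 to -0.37, p 0.00712 to 0.0434, same edgeR test). Only the fits without 1 of these 4 H or 5 C calves changed the groups compared. With lane as a covariate the unadjusted p of STAT3 was 0.00658 by the same edgeR test. In that fit 1074 of the 13943 genes were under 0.05, against 538 without lane. The summed epithelial markers were 1638 to 2755 CPM in TRT6_C and 2063 to 2595 in TRT6_H, those of smooth muscle 4455 to 11279 and 5107 to 9790, and those of leukocytes 79.5 to 252 and 118 to 179. The TRT6_H ranges lay inside the TRT6_C ranges, but the medians differed. They were 2177 and 2384 CPM in TRT6_C and TRT6_H for epithelium, 7288 and 6909 for smooth muscle, and 101 and 132 for leukocytes. Of the 6 epithelial markers, 3 had a higher fitted level in TRT6_C. EPCAM had a log2 fold change of -0.28, CDH1 -0.25 (unadjusted p = 0.104, same edgeR test, the lowest of the 6), KRT8 -0.15 and SLC26A3 0.29. The part of cell makeup in the STAT3 difference was not tested.

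In the other treatments the parity difference of STAT3 was smaller. In TRT0, STAT3 was at 214, 249.6, 293 and 369 CPM in the H calves and at 218, 219, 237, 243 and 308 CPM in the C calves, and the log2 fold change was -0.20 (unadjusted p = 0.221, edgeR quasi-likelihood test), with 2.52% of all genes under 0.05. In TRT12, it was at 229.3, 229.6, 294.5 and 365 CPM in the H calves and at 263, 266, 275.5, 277 and 343 CPM in the C calves, and the log2 fold change was 0.03 (unadjusted p = 0.855, same edgeR test). The H calves spread over a wider range than the C calves in both treatments. The edgeR F test of treatment by parity gave STAT3 an unadjusted p of 0.155, so the parity difference was not shown to depend on the treatment.

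Within the C calves, STAT3 had its lowest mean in TRT6_C (225 CPM) and its highest in TRT12_C (285 CPM). TRT12_C vs. TRT6_C gave a log2 fold change of 0.34 (SE 0.15, unadjusted p = 0.0329, adjusted p = 0.739, edgeR quasi-likelihood test), where 6.71% of all genes had an unadjusted p under 0.05. Only the highest TRT6_C calf, at 265 CPM, reached into the TRT12_C range. The value rested in part on TRT12 replicate 8 at 343 CPM, which stood apart from the other TRT12_C calves, and without it the log2 fold change was 0.26 (unadjusted p = 0.104, same edgeR test). Of the 6 epithelial markers, 5 had a higher fitted level in TRT12_C than in TRT6_C. The adhesion protein CDH1 was the marker with an unadjusted p under 0.05, with a log2 fold change of 0.30 (unadjusted p = 0.0374, same edgeR test), and EPCAM had 0.40 (unadjusted p = 0.0506). KRT8, VIL1 and LGALS4 had 0.20, 0.10 and 0.07. SLC26A3 went the other way, at -0.39 (unadjusted p = 0.124, same edgeR test). The summed level of the 6 markers was 1782 to 2877 CPM in TRT12_C and 1638 to 2755 CPM in TRT6_C, and their part in the STAT3 difference was not tested. For TRT12_C vs. TRT0_C the log2 fold change of STAT3 was 0.21 (95% interval -0.09 to 0.52), where 9.87% of all genes had an unadjusted p under 0.05.

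STAT6, which acts for interleukins 4 and 13 and not through IL6ST, had the smallest range of log2 fold changes of the 5 genes over the 13 contrasts, though not the smallest value in each contrast. Its mean was 96.0 ± 12.9 CPM for TRT0, 97.8 ± 8.13 for TRT6 and 94.4 ± 5.86 for TRT12 (SD over 9 calves). Its log2 fold changes lay between -0.12 and 0.08, and the lowest unadjusted p was 0.288 by edgeR's quasi-likelihood test. The interval for TRT6 vs. TRT0 was -0.13 to 0.19 and that for TRT12 vs. TRT0 -0.19 to 0.13, the narrowest of the 5 genes. In these 2 contrasts over all calves, the 95% intervals of all 5 genes together ran from -0.35 to 0.35 on the log2 scale. Within parity the intervals against TRT0 reached -0.48 (IL6ST in TRT6_C vs. TRT0_C) and 0.52 (STAT3 in TRT12_C vs. TRT0_C).

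**Figure D2:**
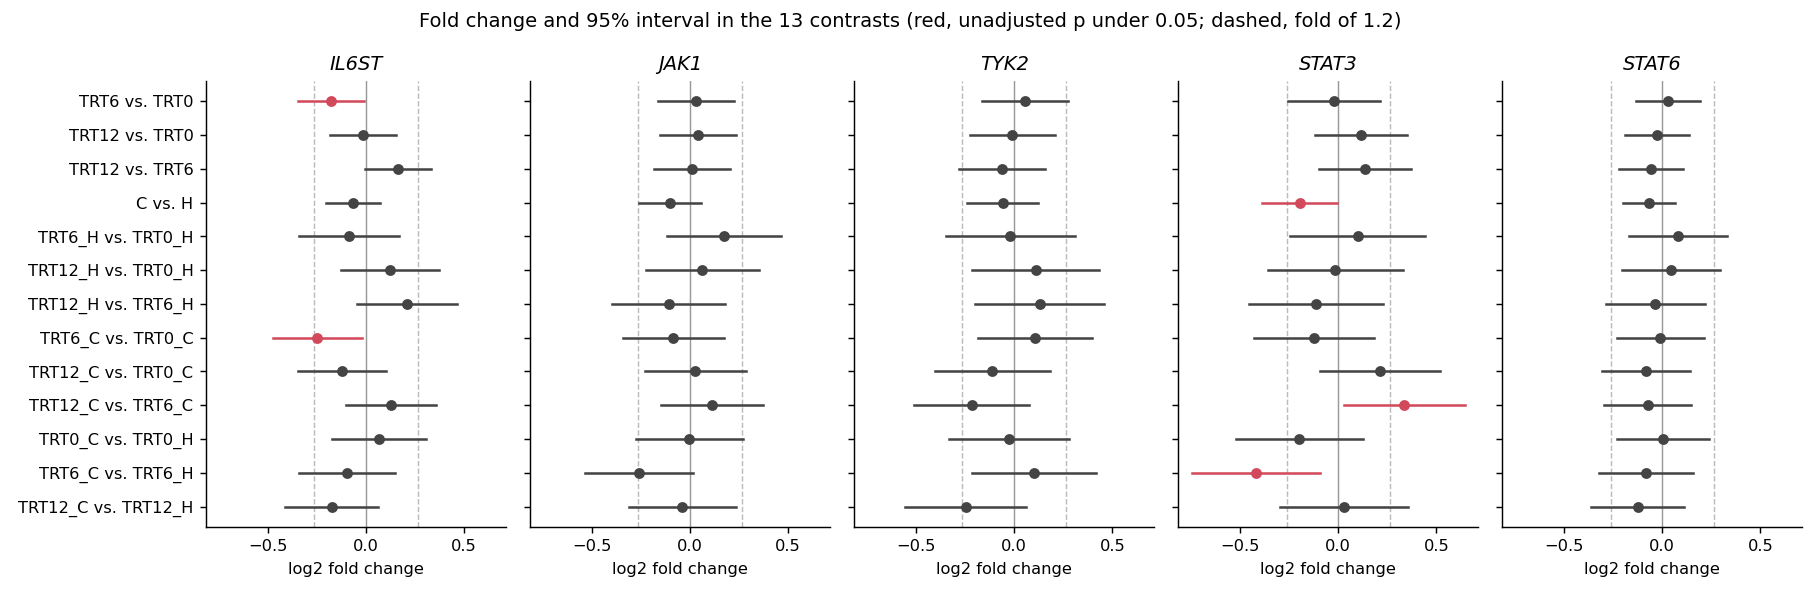
Log2 fold change (point) and 95% interval (line) of IL6ST, JAK1, TYK2, STAT3 and STAT6 in the 13 contrasts, from edgeR's quasi-likelihood fits of 27 calves. Red marks an unadjusted p under 0.05, dashed lines mark a fold of 1.2, and the 5 red points are IL6ST in TRT6 vs. TRT0 and TRT6_C vs. TRT0_C and STAT3 in C vs. H, TRT12_C vs. TRT6_C and TRT6_C vs. TRT6_H.

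In the contrasts not yet named, TRT12_H vs. TRT0_H and TRT12_H vs. TRT6_H, none of the 5 genes had an unadjusted p under 0.05 by edgeR's quasi-likelihood test. The shares of all genes were 3.56% and 1.80%. Among the members, the log2 fold changes in TRT12_H vs. TRT0_H ran from -0.01 for STAT3 to 0.12 for IL6ST, and in TRT12_H vs. TRT6_H from -0.11 for STAT3 to 0.21 for IL6ST. The edgeR F test of any treatment difference gave unadjusted p-values of 0.0757 for IL6ST, 0.447 for STAT3, 0.778 for STAT6, 0.822 for TYK2 and 0.901 for JAK1, against 5.39% of all genes under 0.05. The F test of treatment by parity left all 5 genes above 0.05, with 0.155 for STAT3 the lowest, against 2.66% of all genes under 0.05 and 0.00717% called. The F test of lane called 0 of the 5 genes, against 2.41% of all genes called and 15.4% with an unadjusted p under 0.05. Of the squared deviations of log2 CPM between calves, the 6 groups held 36.8% for IL6ST, 33.7% for STAT3, 18.9% for JAK1, 16.6% for TYK2 and 13.3% for STAT6, beside a median of 16.7% over all genes tested. Lane held 21.3% for JAK1, 20.04% for STAT6, 8.21% for TYK2, 2.73% for IL6ST and 1.77% for STAT3 (median of all genes 8.68%), so for JAK1 and STAT6 the share of lane was above that of the 6 groups.

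The 5 genes varied less between calves than most of the genes tested. The coefficient of variation of CPM over the 27 calves was 9.55% for STAT6, 11.8% for IL6ST, 12.4% for JAK1, 14.7% for TYK2 and 18.2% for STAT3, and its median over all genes tested was 25.9%. Counting error alone would have given 7.30%, 7.04%, 4.43%, 8.31% and 4.43% in the same order, so STAT6 and its counting error were closest and STAT3 lay farthest above its own. The spread depends on the level, so each gene was also set beside 501 genes of like CPM. There, 2.40% had a lower coefficient of variation than STAT6, 17.4% than IL6ST, 19.6% than JAK1, 34.9% than TYK2 and 57.1% than STAT3. STAT3 was thus as variable as genes of its level and the other 4 less variable than their medians of 15.9% to 17.3%. The order of the genes turned with the scaling, and with CPM over library totals STAT6 stood at 15.2% and JAK1 lowest at 9.93%.

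**Figure D3:**
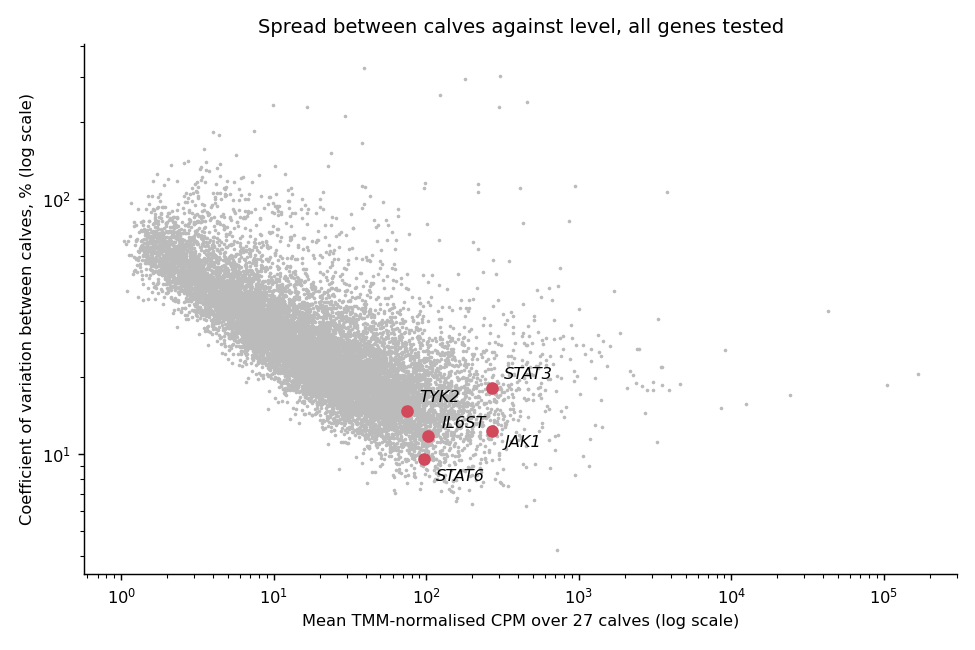
Coefficient of variation between 27 calves (percent, log scale) against mean TMM-normalised CPM (log scale) for the 13943 genes tested, in grey, with the 5 JAK and STAT signalling genes in red. STAT3 lies at 18.2%, near the middle of the genes of its level, and STAT6 at 9.55%, near their lower edge.

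The members were then compared with each other over the calves, as Pearson's r and Spearman's rho of log2 CPM with two-sided permutation p-values (100000 resamples, 10 pairs, Benjamini-Hochberg adjusted). STAT6 and TYK2 were the pair past an adjusted p of 0.05 for r, with r = 0.58 (permutation p = 0.00146, adjusted p = 0.0146) and rho = 0.527 (adjusted p = 0.0513). Without the 2 calves farthest from the median of STAT6 r was 0.534, and within lanes 1 and 2 it was 0.608 and 0.514, each over 11 calves. Without TRT0 replicate 5, which had the lowest level of both genes, r was 0.503 with an adjusted permutation p of 0.0895. STAT3 and JAK1 had r = 0.356 (permutation p = 0.0692, adjusted p = 0.346), IL6ST and JAK1 0.308 (adjusted p = 0.394), and IL6ST and STAT3 0.0558 (adjusted p = 0.961). The pairs among the receptor subunit, its kinase and its transcription factor thus did not pass the threshold over these calves.

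The levels of the members were also set beside the mean log2 CPM of the marker lists, in 15 relations with the same permutation test. None had an adjusted p under 0.05. TYK2 had r = -0.526 with the epithelial markers (permutation p = 0.00561, adjusted p = 0.0648, rho = -0.517), with -0.711 after leaving out the 2 calves farthest from the median of the markers and -0.709 and -0.622 within lanes 1 and 2. JAK1 had r = 0.474 with the epithelial markers (permutation p = 0.0125, adjusted p = 0.0648, rho = 0.451), with 0.455 after the same step and 0.702 and 0.605 within the lanes. The 2 kinases thus had opposite signs against the same markers. TYK2 had r = 0.47 with the leukocyte markers (permutation p = 0.013, adjusted p = 0.0648, rho = 0.405), and this relation rested on 2 calves, since r was 0.258 without them. STAT3 had r = 0.00174 with the epithelial, -0.146 with the smooth muscle and 0.323 with the leukocyte markers (adjusted p = 0.993, 0.640 and 0.361).

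**Figure D4:**
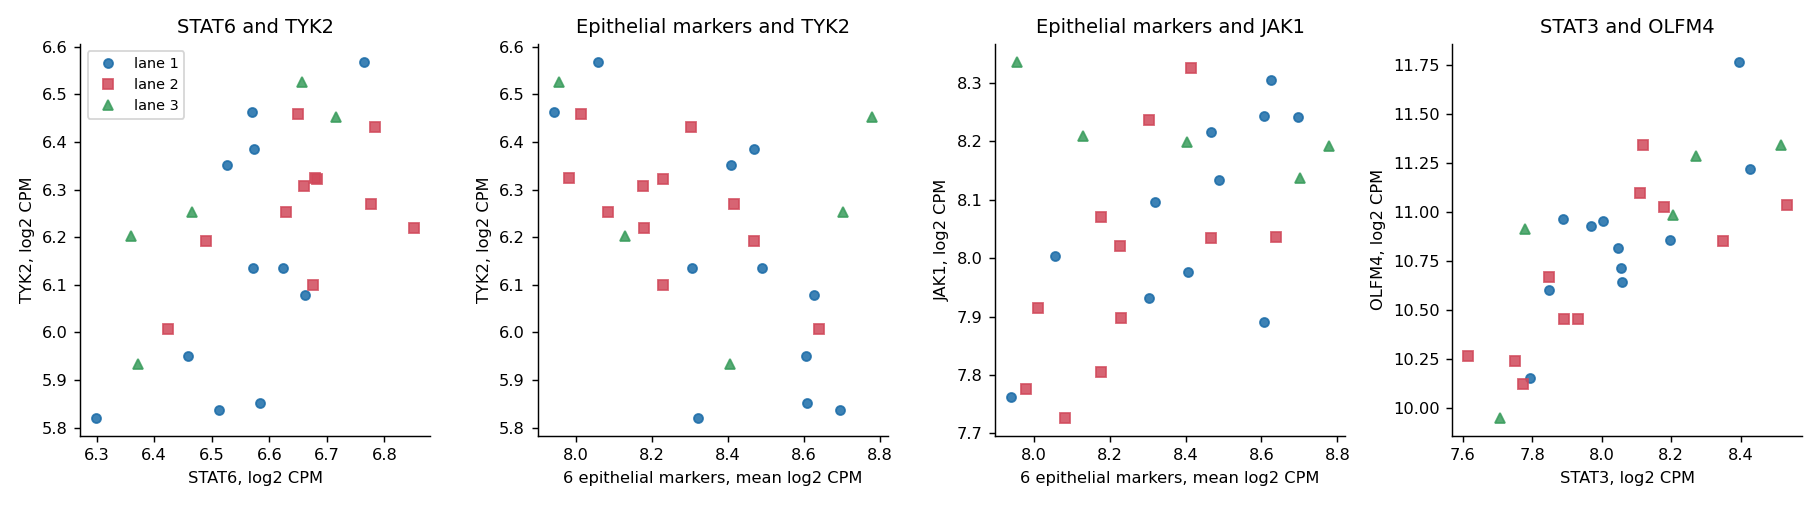
Log2 CPM in each of the 27 calves, with shape and colour giving the lane, for TYK2 against STAT6, for TYK2 and JAK1 against the mean of the 6 epithelial markers, and for OLFM4 against STAT3. The points give r = 0.58 for TYK2 and STAT6, -0.526 and 0.474 for TYK2 and JAK1 with the epithelial markers (neither past the adjusted threshold), and 0.786 for OLFM4 and STAT3.

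The genes with the pattern most like STAT3 over the 27 calves, among 13942 others, are given as a description without a test, since they were chosen for their r. They were OLFM4 (r = 0.786), PPA1 (0.767), AGR2 (0.759), ASNS (0.753) and EIF4A1 (0.739). OLFM4 is a secreted glycoprotein of intestinal crypts and AGR2 a disulfide isomerase of mucus-secreting cells, while PPA1 is an inorganic pyrophosphatase, ASNS makes asparagine and EIF4A1 is a helicase of translation initiation. OLFM4 ranged from 989 to 3480 CPM and AGR2 from 250 to 1190 CPM, a far wider range than that of STAT3 (195 to 369 CPM). Within lanes 1 and 2, r with STAT3 was 0.785 and 0.774 for OLFM4 and 0.941 and 0.704 for AGR2, and after centring within the 6 groups it was 0.692 and 0.724. PRKACB, a catalytic subunit of protein kinase A, was the gene most like JAK1 (r = 0.833, and 0.856 and 0.869 within lanes 1 and 2). The genes most like STAT6, TYK2 and IL6ST carried no symbol in the name tables used here and are given by identifier. ENSBTAG00000040507 had r = 0.799 with STAT6, ENSBTAG00000003160 had 0.749 with TYK2, and ENSBTAG00000024545 had 0.685 with IL6ST, the last from at most 16 counts per calf.

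Around the 5 genes, 68 further genes of the pathway were listed (family members, ligands, receptors, inhibitors and targets), of which 11 had 1 identifier and 9 passed the filter. SOCS3, the best known target of STAT3, was not analysed here. SOCS1, a feedback inhibitor of the Janus kinases, and EPOR, the erythropoietin receptor, did not pass the filter, with at most 12 and 7 counts per calf. None of the 9 was called in any contrast by edgeR's quasi-likelihood test, which called 0.00% of all genes in each, or by its likelihood ratio test. DESeq2 called 1 (MCL1, in TRT12 vs. TRT0), where it called 51 of all 13943 genes. In the edgeR F test of any treatment 1 of the 9 (MCL1) had an unadjusted p under 0.05, beside 5.39% of all genes. The 9 genes had a median log2 fold change of 0.10 in TRT6 vs. TRT0, and of 0.12 for TRT12 against TRT0, beside medians of 0.0063 and -0.0039 over all genes tested. Over the 13 contrasts their median ran from -0.25 (TRT6_C vs. TRT6_H) to 0.16 (TRT12_C vs. TRT6_C). The 9 hold inhibitors beside receptors and targets, and their medians were not tested.

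Among the ligands and receptors, IL15, a cytokine of lymphocytes, was near the lower limit of the deposited counts, with 0 to 11 per calf. Its log2 fold change in TRT6 vs. TRT0 was -0.69 (SE 0.37). IL11RA, which pairs with IL6ST to bind interleukin 11, had 7.13 to 19.9 CPM and a log2 fold change of 0.31 (SE 0.17) in the same contrast. IFNGR1, the ligand-binding chain of the interferon gamma receptor, had 80.2 to 132 CPM and log2 fold changes of -0.0037 and 0.11 for TRT6 and TRT12 against TRT0. IFNGR2, the other chain of that receptor, had log2 fold changes of 0.10 and 0.12, and IL10RB, a chain of the interleukin 10 receptor, of 0.0027 and -0.06. Of the inhibitors, SOCS2 had log2 fold changes of -0.13 and -0.02 and PIAS4 of 0.22 and 0.17 in these 2 contrasts. All of these had an unadjusted p above 0.05 in both contrasts by edgeR's quasi-likelihood test.

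MCL1, a survival protein of the BCL2 family and a target of STAT3, had the lowest unadjusted p of the pathway list in the F test of any treatment (0.00742). It ranged from 136 to 178 CPM in TRT0 (median 161), from 156 to 195 CPM in TRT6 (median 171) and from 149.5 to 247 CPM in TRT12 (median 190.5). Of the TRT12 calves 7 lay above the TRT0 range and the other 2 inside it. MCL1 had a log2 fold change of 0.30 in TRT12 vs. TRT0 (SE 0.089, unadjusted p = 0.00206, adjusted p = 0.410, edgeR quasi-likelihood test) and in TRT12_C vs. TRT0_C 0.36 (unadjusted p = 0.00645, adjusted p = 0.427). In these contrasts 9.37% and 9.87% of all genes had an unadjusted p under 0.05. The 6 epithelial markers all had a higher fitted level in TRT12 than in TRT0, with a median log2 fold change of 0.22. VIL1 at 0.34 (unadjusted p = 0.0107) and CDH1 at 0.23 (unadjusted p = 0.0363) were the 2 under 0.05 by the same edgeR test. In TRT12_C vs. TRT0_C 5 of the 6 were higher, with a median of 0.33, and the same 2 genes were under 0.05. The part of the epithelial share in the MCL1 difference was not tested. The unadjusted p in TRT12 vs. TRT0 stayed under 0.05 in all 27 fits that left out 1 calf and under 10 other settings, with log2 fold changes of 0.25 to 0.35 and 0.27 to 0.31. Its adjusted p was 0.0502 with DESeq2, the lowest of those 10 settings, and it was then 1 of 51 genes called in this contrast, against 0 genes by edgeR's quasi-likelihood test.

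IRF1, a transcription factor induced by interferons, had an unadjusted p under 0.05 in the H calves of both later treatments against TRT0_H. The 4 TRT0_H calves had 56.1, 58.9, 76.9 and 88.6 CPM, the TRT6_H calves 54.0, 82.2, 143 and 153 CPM, and the TRT12_H calves 73.8, 86.0, 111 and 228 CPM. In TRT6_H and in TRT12_H 2 calves lay above the TRT0_H range and 2 did not. For TRT12_H vs. TRT0_H the log2 fold change of IRF1 was 0.81 (SE 0.29, unadjusted p = 0.00935, adjusted p = 1, edgeR quasi-likelihood test), and for TRT6_H vs. TRT0_H it was 0.63 (SE 0.29, unadjusted p = 0.0412, adjusted p = 0.9999, same test). In the C calves IRF1 lay between 64.6 and 101.5 CPM in TRT0_C and between 56.5 and 120.0 CPM in TRT12_C, and the edgeR F test of treatment by parity gave it an unadjusted p of 0.148.

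The highest level of IRF1 came from TRT12 replicate 1, an H calf of lane 3. This calf also had the highest level of the leukocyte marker PTPRC in TRT12_H, 177 CPM against 43.9 to 59.6 CPM in the other 3 calves, and the part of leukocyte RNA was not tested. Without it the log2 fold change of IRF1 in TRT12_H vs. TRT0_H was 0.37 (unadjusted p = 0.168, edgeR quasi-likelihood test). Without TRT6 replicate 3 the value for TRT6_H vs. TRT0_H was 0.40 (unadjusted p = 0.209, same edgeR test). The TRT0_H calves came from lanes 1 and 2 and 2 of the 4 TRT12_H calves from lane 3, and with lane as a covariate the same edgeR test gave IRF1 0.53 in TRT12_H vs. TRT0_H (unadjusted p = 0.0776) and 0.62 in TRT6_H vs. TRT0_H (unadjusted p = 0.0324). Over all calves lane as a covariate lowered the p, from 0.222 to 0.0406 in TRT6 vs. TRT0 (log2 fold change 0.25 and 0.40) and from 0.0531 to 0.0183 in TRT12 vs. TRT0 (0.40 and 0.45), by the same edgeR test. In these 2 contrasts 499 and 1382 of the 13943 genes were under 0.05 with lane, against 438 and 1307 without lane. The edgeR F test of any lane difference gave IRF1 an unadjusted p of 0.0165 (adjusted p = 0.21). Among the 5 members, TRT12 replicate 1 had the highest STAT3, JAK1 and TYK2 levels of TRT12_H, and without it 0 members were called, as with it.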

How the data were processed

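RNA of ground colon tissue from 27 calves was sequenced from TruSeq v2 libraries. The authors aligned reads to the bovine genome UMD 3.1 with TopHat2 2.1.1 and sorted them with SAMtools 1.4. They deposited HTSeq counts per Ensembl gene, leaving out reads of more than 1 gene, with totals far below the reported reads. The strand setting is not given in the sources used here, so overlapping or antisense genes cannot be told apart. Treatment came from the labels. Dam parity came from the study's animal list, and the lane was read from codes in the library names, which no label explains.

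Genes that reached a CPM of 1 in 5 or more of the 9 calves of every treatment were tested with edgeR 4.0.16 (R 4.3.3), with TMM factors, the quasi-likelihood test and Benjamini-Hochberg adjustment over all genes tested. The 4 overall contrasts came from an additive fit of treatment and parity, and the 9 others and the interaction from a fit of the 6 groups. Calls needed an adjusted p of 0.10 and a fold of 1.2. Log2 CPM used a prior count of 2. Identifiers were named from the study's gene tables (4046 identifiers), and a symbol without a single identifier was left out. No gene length of this build was at hand, so levels of different genes are not compared. Every member was described in every contrast, with the 5 genes most like STAT3, the gene most like each other member, and, of the pathway lists, the 2 genes with the lowest p per list in the test of any treatment. IRF1 was described in the H calves after its values were seen. IFNGR2 and IL10RB, outside this rule, were given so that every pathway gene tested has a value. A further gene of the pathway is not reported here. The members and lists were chosen with earlier results of these data known, and 8 of the 11 pathway genes were named from a list of genes co-expressed in these calves.

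Among 351 pairs of libraries, 0 were identical, and the most similar pair differed with a chi-square of 3.00 per degree of freedom. The labels give 1 library per calf, so p-values measure the spread between calves. Alternatives were edgeR's likelihood ratio test, DESeq2 1.42.0, RLE factors, library totals, no filter, only genes at a CPM of 1 in every calf, lane as a covariate, the compared groups only, treatment or parity alone, the 10 highest genes left out and each calf left out. Where the calf left out belonged to neither group of a contrast, both groups stayed whole, so such fits say little about that contrast. Correlations used Python 3.11.15 with numpy 2.4.6 and scipy 1.17.1.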

Additional observations from a re-analysis of the deposited data

Results flagged for a closer look

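In 54 groups of 4 to 9 calves (6 genes, by treatment and by treatment and parity), 3 had a highest calf far from the rest by Dixon's criterion, and chance alone gives about 1 in 20. STAT3 was at 308 CPM in TRT0 replicate 1, against 218 to 243 CPM in the other 4 TRT0_C calves, and at 343 CPM in TRT12 replicate 8, against 263 to 277 CPM in the other 4 TRT12_C calves. IRF1 was at 228 CPM in TRT12 replicate 1, against 56.5 to 120.0 CPM in the other 8 TRT12 calves.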

How the results depend on the processing

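Under each alternative run, leave-one-out fits included, 0 of the 5 genes were called in the overall contrasts and in the contrasts within parity or treatment. The F tests also called 0 where these were refitted (not with DESeq2, lane as a covariate, the compared groups only or treatment or parity alone). No log2 fold change of a member, MCL1 or IRF1 named at an unadjusted p under 0.05 in the main edgeR fit changed sign. The marker genes were not followed under these alternatives. The number of member tests with an unadjusted p under 0.05 in the 4 overall contrasts was 2 of 20, beside 2.52% to 9.37% of all genes per contrast. It was 0 with the likelihood ratio test, 1 with library totals, 1 with treatment or parity alone, 3 with the 10 highest genes left out and 2 with the 6 other settings, and leaving out 1 calf gave 0 to 3. Within parity or treatment it was 3 of 45, with 2 (library totals) to 4 (DESeq2, lane as a covariate) under the other settings and 1 to 5 without 1 calf. In these contrasts 251 to 1376 of the 13943 genes (1.80% to 9.87%) were under 0.05 in the main fit. The same count was 179 to 1252 with DESeq2 and 319 to 1842 with lane as a covariate, so shifts of the member counts are not particular to the members. Of the 10 pairs of members, 1 passed an adjusted p under 0.05, against 3 on log2 CPM over library totals and 0 to 1 without 1 calf. Of the 15 relations with markers, 0 passed, against 7 over library totals, 3 after centring within the 6 groups and 0 to 3 without 1 calf. The coefficient of variation of STAT6 was 9.55%, against 15.2% with CPM over library totals, an alternative chosen after seeing the data. The cause of these shifts was not tested. No paired analysis was possible because the replicate numbers were given in accession order, and equal numbers belong to different calves with no link in the labels. The intervals of the fold changes give the precision of this number of calves, and 3 counts came to 0.714 to 2.58 CPM per calf, which limits IL15, EPOR and SOCS1.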
